A study of Mus musculus with 18 samples.

Results

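The integrated stress response was followed through 10 genes in cultured mouse cortical neurons: Atf4, Atf5, Atf3, Ddit3, Trib3, Chac1, Asns, Sesn2, Ddit4 and Xbp1. They were found by gene symbol in the deposited count table, where each had 1 row, so that all 10 were recovered among 37310 genes, and all 10 were among the 15433 genes that passed the filter on low counts. The cells were cortical neurons of wildtype (WT) mice or of mice labelled Fmr1 knockout (KO), which model fragile X syndrome through loss of the RNA-binding protein FMRP. At 7 days in vitro they received vehicle (DMSO) or JQ1 for 24 h, which gives 4 groups of 3 libraries, named here WT_DMSO, KO_DMSO, WT_JQ1 and KO_JQ1. JQ1 is a small molecule that displaces BET proteins from acetylated histones; the sources used here give no dose. The labels also list 6 samples treated with THZ1, which were not analysed here. The labels do not say if replicates are separate cultures or animals. The p-values therefore describe only how far these libraries scatter, part of which may be technical.

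In the integrated stress response, kinases that sense amino acid shortage, unfolded protein in the endoplasmic reticulum (ER), double-stranded RNA or haem shortage phosphorylate the initiation factor eIF2. General translation then slows while the mRNA of the transcription factor ATF4 is translated more, through short reading frames ahead of its coding sequence. ATF4 binds DNA as a dimer with other basic leucine zipper proteins and switches on genes for amino acid supply, redox balance and, under prolonged stress, cell death. Control of ATF4 itself is thus largely translational, and an mRNA count does not measure it.

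Library depth ran from 21643592 to 134110850 gene counts. Levels below are in CPM, read counts brought to a common library size, after TMM scaling, which sets the bulk of genes equal between libraries. The log2 changes come from the quasi-likelihood test of edgeR, with p-values adjusted over all 15433 genes by the Benjamini-Hochberg method, where an adjusted p under 0.05 is a call. Fmr1 was at 120.9 ± 2.89 CPM in WT_DMSO and 24.38 ± 4.40 CPM in KO_DMSO, and at 144.5 ± 9.19 and 29.42 ± 4.59 CPM in the JQ1 groups (SD, n = 3 each), so that its RNA was reduced but present in the KO libraries. Both KO libraries numbered 3 stood apart, with Xist at 4.29 to 4.34 CPM against 231 to 441 CPM in the other 10 libraries. Ddx3y was at 54.5 to 76.2 CPM in them against 28.1 to 46.1 CPM in the other 10. They thus differed in sex-linked RNA from the other KO libraries, so the KO replicates did not all come from the same source of cells. The share of spike-in reads was unequal, from 0.119 to 0.35% of gene counts. Scaling to these ERCC spike-ins shifted the median log2 change of all genes by -0.633 for JQ1 in WT, 0.067 for JQ1 in KO, -0.824 for KO over WT in DMSO and -0.121 for KO over WT in JQ1. Changes are therefore reported relative to the bulk of genes. Relative to the shifted median, the 10 genes lay within 0.09 of the values given here in all 5 comparisons. That closeness is largely built in, since scaling shifts all genes of a library alike, and it is not a test of the changes.

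Promoter sequence was examined for the C/EBP-ATF response element, the composite site through which ATF4 dimers act, searched as TGATGNAA on both strands in the 250 bases before each start site. RefSeq promoters on GRCm38.p6 were matched for all 10 genes, and 3 held the element, Chac1, Asns and Atf3, against 3.91% of 27025 genes with a promoter in the table. Chac1 also held the related site TGACGCAA, present in 0.507% of genes. The stretches that hold the matches are shown 5′ to 3′ on the strand of the gene with the matches in capitals. TTGCATCA is the element read from the opposite strand, and bases annotated as exon were left out except in a window of 30 bases around the Asns site.
Chac1 (chr2:119350992-119351228, plus strand): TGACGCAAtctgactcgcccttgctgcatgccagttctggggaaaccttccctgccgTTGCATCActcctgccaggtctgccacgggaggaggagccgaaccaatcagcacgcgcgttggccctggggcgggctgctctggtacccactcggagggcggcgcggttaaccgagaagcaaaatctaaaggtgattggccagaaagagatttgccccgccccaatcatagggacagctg
Atf3 (chr1:191183341-191183583, minus strand): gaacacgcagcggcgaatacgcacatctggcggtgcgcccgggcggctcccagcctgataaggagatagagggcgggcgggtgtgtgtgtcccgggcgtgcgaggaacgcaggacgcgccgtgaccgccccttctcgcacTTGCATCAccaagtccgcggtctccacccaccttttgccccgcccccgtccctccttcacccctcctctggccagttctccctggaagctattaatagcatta
Asns (chr6:7693214-7693243, minus strand): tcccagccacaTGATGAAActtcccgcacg
The element lay 193 to 186 bases before the RefSeq start in Chac1, 110 to 103 in Atf3 and 23 to 16 in Asns, where GENCODE M21 places the site inside an annotated exon of the gene. No window of the 10 genes, 11 in all since Atf5 has 2 starts, held the cyclic AMP element TGACGTCA (1.77% of genes), the ER stress element (CCAAT and CCACG with 9 bases between them, 0.13%) or the XBP1-type site TGACGTGG (0.603%). These are matches of letters in a short window and not measurements of binding.

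The 10 genes spanned a wide range of RNA levels. Per kilobase of annotated exon, vehicle-treated WT neurons held most Atf4, at 70.1 ± 2.28 CPM per kb, followed by Ddit4 at 64.3 ± 2.05, Asns at 41.9 ± 0.516 and Xbp1 at 28.4 ± 2.18 CPM per kb. A middle group held Atf5 at 13.6 ± 1.39, Sesn2 at 10.9 ± 0.0978, Ddit3 at 7.04 ± 0.482 and Chac1 at 4.19 ± 0.376 CPM per kb. Trib3 and Atf3 were lowest, at 0.45 ± 0.0955 and 0.352 ± 0.0295 CPM per kb, and theirs were the only neighbouring mean ± SD ranges in this order that overlapped. In KO_JQ1 the second place was shared, with Asns at 51.3 ± 2.95 and Ddit4 at 50.5 ± 2.85 CPM per kb. Depth set the precision of the low genes, since Trib3 had 5 to 62 reads per library and Atf3 23 to 122.

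**Figure D1:**
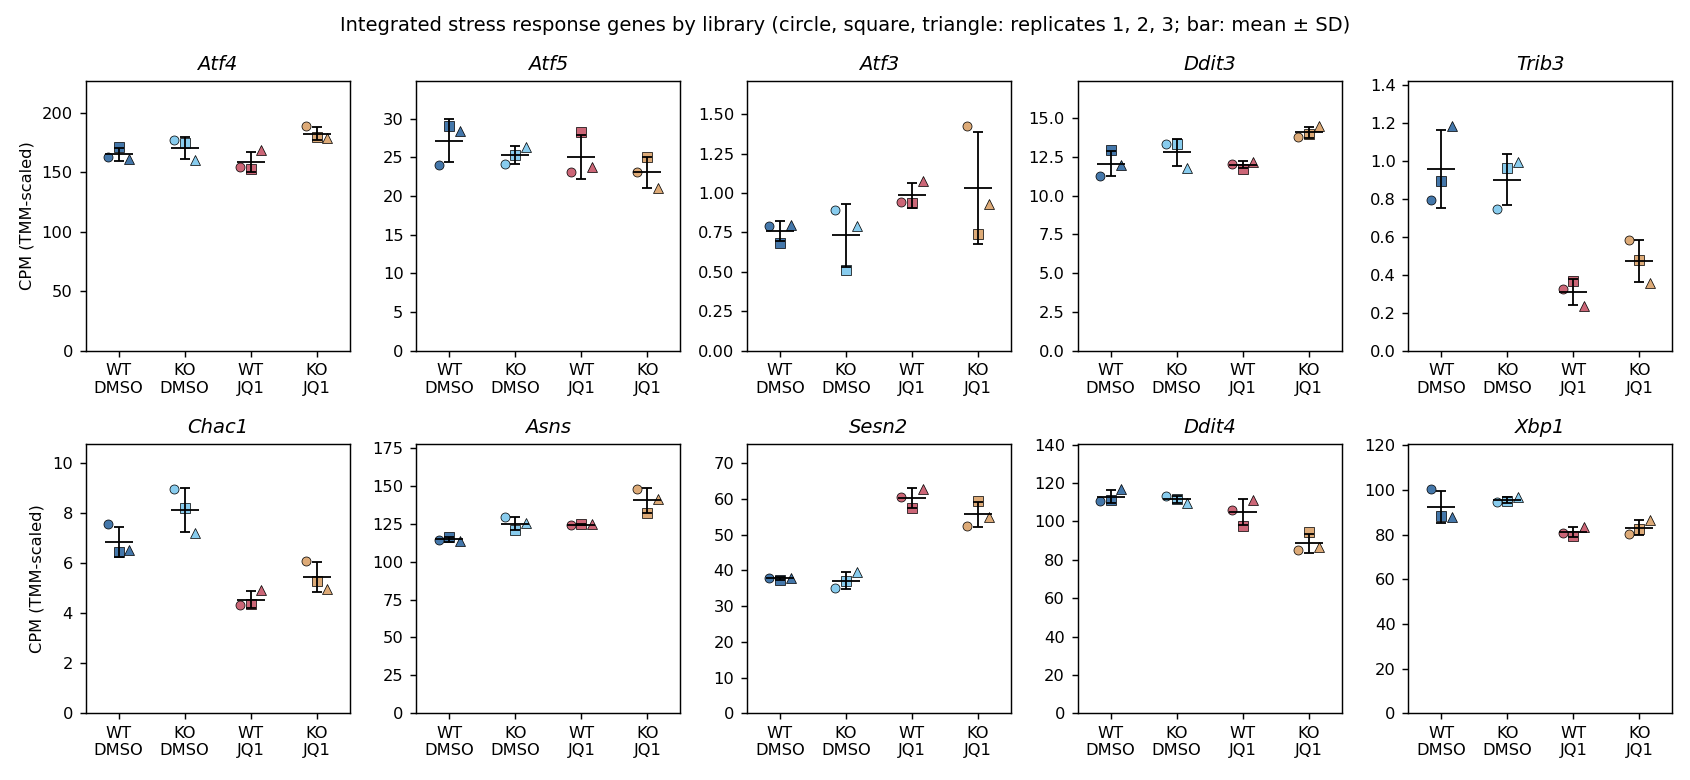
CPM after TMM scaling (linear axis from 0) of each of the 10 genes in the 12 libraries, with circles, squares and triangles for replicates 1, 2 and 3 and bars for the mean ± SD of 3 libraries. Trib3 and Chac1 sit lower and Sesn2 higher in both JQ1 groups, while Atf4 stays between 153 and 189 CPM throughout.

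The first question was how these genes responded to JQ1. In WT neurons 2 of the 10 rose, Sesn2 and Asns, and 3 fell, Trib3, Chac1 and Xbp1, against 55.1% of all tested genes called in this comparison (25.9% higher and 29.3% lower). In KO neurons the same 2 rose and Trib3, Chac1, Xbp1 and Ddit4 fell, against 57.1% of all genes (27.7% higher and 29.4% lower). The share of the 10 genes called, 50% in WT and 60% in KO, was thus near that of genes at large. Their median log2 change was -0.08 in WT and -0.01 in KO, beside 0 for all tested genes in both. The libraries of the compared groups did not overlap for 6 of the 10 in WT and 8 in KO, beside 62.6% and 60.7% of all genes. The members moved in different directions, and of the 5 transcription factor genes Atf4, Atf5, Atf3 and Ddit3 were not called in either genotype while Xbp1 was called lower in both.

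Atf4, the central factor of the response, was at 163, 171 and 161 CPM in WT_DMSO and at 155, 153 and 169 CPM in WT_JQ1. Its KO libraries were at 177, 174 and 160 CPM in DMSO and at 189, 180 and 179 CPM in JQ1. The groups overlapped in WT, whereas in KO all 3 JQ1 libraries lay above the DMSO ones. The log2 change was -0.06 (SE 0.053, 95% interval -0.17 to 0.05, adjusted p = 0.359) in WT and 0.10 (SE 0.0527, interval -0.01 to 0.21, adjusted p = 0.126) in KO.

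Ddit3 encodes CHOP, a factor that ATF4 induces and that promotes cell death under lasting stress. It was at 12.06 ± 0.825 CPM in WT_DMSO and 11.99 ± 0.23 CPM in WT_JQ1 (log2 change -0.01, SE 0.0723, adjusted p = 0.893), and at 12.79 ± 0.874 and 14.08 ± 0.361 CPM in KO (0.14, SE 0.0695, adjusted p = 0.107). In the annotation 68 of its exon bases, 3.97% of the total, overlap Mars on the other strand, and 105 overlap another gene model of the same name. The sources used here do not state whether counting used strand, and part of its reads could belong to those genes.

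Atf5, a relative of ATF4 that is likewise controlled through upstream reading frames, went from 27.17 ± 2.78 to 25.05 ± 2.86 CPM in WT (log2 change -0.11, SE 0.0932, adjusted p = 0.347) and from 25.26 ± 1.15 to 23.05 ± 2.04 CPM in KO (-0.13, SE 0.0922, adjusted p = 0.258). It shares 82 exon bases with each of Nup62 and Il4i1 on the other strand. Atf3, a stress-induced factor that can act on its own targets as a repressor, was near 1 CPM in all libraries. Its libraries held 0.791, 0.684 and 0.798 CPM in WT_DMSO and 0.942, 0.938 and 1.07 CPM in WT_JQ1. The groups did not overlap, yet the change of 0.35 (SE 0.262, adjusted p = 0.277) was not called. In KO the values were 0.891, 0.511 and 0.792 CPM in DMSO and 1.42, 0.742 and 0.927 CPM in JQ1, which overlap (0.46, SE 0.248, adjusted p = 0.13). Blocking on the replicate number within genotype called it (0.50, adjusted p = 0.0262), as did leaving out KO_JQ1 replicate 2 (0.71, adjusted p = 0.03).

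Trib3 had the largest change of the 10. It encodes a pseudokinase that ATF4 and CHOP induce and that feeds back on ATF4. The level was 0.791, 0.895 and 1.18 CPM in WT_DMSO and 0.327, 0.369 and 0.233 CPM in WT_JQ1. In KO it was 0.745, 0.959 and 0.994 CPM in DMSO and 0.581, 0.477 and 0.359 CPM in JQ1. All JQ1 libraries lay below all DMSO libraries of their genotype. Trib3 fell 2.83-fold in WT (log2 change -1.50, SE 0.241, interval -2.02 to -0.98, adjusted p = 0.00012) and 1.89-fold in KO (-0.92, SE 0.224, interval -1.40 to -0.44, adjusted p = 0.00297). Few reads stand behind this, with 17, 48 and 5 in the WT_JQ1 libraries and 22, 36 and 12 in the KO_JQ1 ones. Leaving out single libraries moved the WT value between -1.68 and -1.31 and the KO value between -1.05 and -0.80, all called.

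Chac1, a glutathione-degrading enzyme whose promoter holds both sites shown above, fell as well. WT_DMSO held 7.56, 6.45 and 6.55 CPM and WT_JQ1 4.33, 4.36 and 4.95 CPM. The KO libraries held 8.98, 8.22 and 7.20 CPM in DMSO and 6.10, 5.28 and 4.97 CPM in JQ1. Neither pair of groups overlapped, and the decrease was 1.53-fold in WT (log2 change -0.61, SE 0.112, adjusted p = 0.000349) and 1.49-fold in KO (-0.58, SE 0.105, adjusted p = 0.00032).

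Asns, asparagine synthetase, carries the same kind of element but moved the other way. Its WT libraries held 114, 116 and 113 CPM in DMSO and 124, 125 and 125 CPM in JQ1, a small rise without overlap (log2 change 0.12, SE 0.0471, adjusted p = 0.0443), which spike-in scaling turns to -0.52. That WT call was lost without any 1 of the 6 WT libraries (adjusted p 0.054 to 0.0923). In KO Asns went from 129, 120 and 125 CPM to 148, 132 and 141 CPM (0.16, SE 0.0467, adjusted p = 0.00772), again with no overlap. The 3 genes with the element therefore differed in direction, with Chac1 lower, Asns slightly higher and Atf3 not called.

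Sesn2 and Ddit4 encode inhibitors of the growth kinase mTORC1, Sestrin2 acting through leucine sensing and DDIT4 (REDD1) through the TSC complex. Sesn2 held 37.9, 37.4 and 38.0 CPM in WT_DMSO and 60.4, 57.4 and 62.8 CPM in WT_JQ1. In KO it held 35.0, 36.9 and 39.6 CPM in DMSO and 52.5, 59.4 and 54.9 CPM in JQ1. Every JQ1 library was far above every DMSO library, and Sesn2 rose 1.59-fold in WT (log2 change 0.67, SE 0.0588, adjusted p = 5.08e-07) and 1.5-fold in KO (0.58, SE 0.0578, adjusted p = 1.37e-06) relative to the bulk of genes. On the spike-in scale the WT change was 0.03, not called.

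Ddit4 went the opposite way in KO, where the DMSO libraries held 113, 112 and 110 CPM and the JQ1 libraries 85.0, 94.3 and 86.5 CPM (log2 change -0.33, SE 0.0537, adjusted p = 0.000129). In WT the values were 111, 111 and 117 CPM in DMSO and 106, 97.7 and 111 CPM in JQ1, a change of -0.11 (SE 0.054, adjusted p = 0.0978). The KO groups were well separated and the WT groups overlapped. Blocking on the replicate number called the WT change (-0.11, adjusted p = 0.0496), as did leaving out WT_JQ1 replicate 3 (adjusted p = 0.0417).

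Xbp1 encodes the factor of the IRE1 branch of the unfolded protein response. Total Xbp1 RNA fell slightly, from 101, 88.5 and 88 to 80.6, 79.4 and 83.4 CPM in WT (log2 change -0.19, SE 0.0527, adjusted p = 0.00749) and from 94.5, 94.9 and 96.9 to 80.2, 82.6 and 86.5 CPM in KO (-0.20, SE 0.0522, adjusted p = 0.00464). The JQ1 libraries lay below the DMSO libraries in both genotypes, but without WT_DMSO replicate 1, the highest, the WT call was lost (-0.12, adjusted p = 0.0547), which left 3 of the 10 called in WT. Counts per gene do not separate the spliced, active form from the unspliced one. On the spike-in scale none of the 10 genes was called for JQ1 in KO, where Trib3 was at -0.89 and Sesn2 at 0.64. In WT 5 were called on that scale, all lower.

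**Figure D2:**
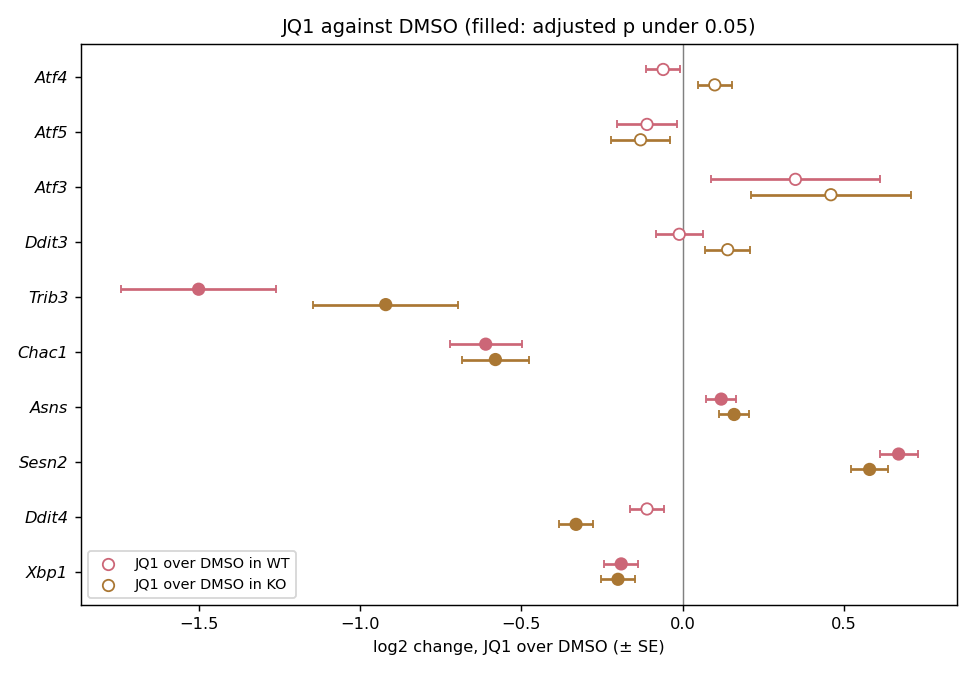
Log2 change of JQ1 over DMSO (horizontal axis) with its SE for the 10 genes, in WT (pink) and KO (brown), filled where the adjusted p is under 0.05. Trib3 lies farthest to the left at -1.50 in WT and -0.92 in KO, Sesn2 farthest to the right at 0.67 and 0.58 (0.03 in WT on the spike-in scale), and Atf4 next to 0.

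Ratios between 2 genes of the same library do not depend on any scaling of libraries. Against 1000 reads of Atf4, Trib3 had 5.80 ± 1.35 reads in WT_DMSO and 1.97 ± 0.531 in WT_JQ1, and 5.30 ± 1.01 and 2.58 ± 0.539 in KO. Chac1 had 41.5 ± 4.4 and 28.6 ± 0.703 reads in WT and 47.6 ± 2.92 and 29.8 ± 2.3 in KO. Sesn2 had 229 ± 9.33 and 379 ± 9.27 in WT and 219 ± 25.5 and 305 ± 26.5 in KO (SD, n = 3 for each). For these 3 genes the JQ1 and DMSO libraries did not overlap in either genotype. The exact two-sided permutation p, taken without pairing, was 0.1, the smallest that 3 against 3 libraries allow. Ddit4 overlapped in WT (684 ± 39.8 and 660 ± 21.7 reads) and did not in KO (654 ± 25.9 and 486 ± 37.8). Ddit3 kept a nearly constant ratio, at 72.9, 74.9, 75.6 and 77.2 reads in WT_DMSO, KO_DMSO, WT_JQ1 and KO_JQ1, and its groups overlapped in all 4 comparisons. Of all 9 ratios to Atf4, 3 were higher and 2 lower under JQ1 without overlap in WT, and 1 was higher and 4 lower in KO. Asns was apart in WT and overlapped in KO. Between the genotypes all 9 overlapped in DMSO, whereas in JQ1 Atf5, Ddit4, Sesn2 and Xbp1 were lower in KO and 0 were higher. These ratios share Atf4 as denominator, and relative to the bulk of genes Atf4 was itself called higher in KO_JQ1 (log2 change 0.20). On that scale Ddit4 was called lower (-0.24), while Atf5 (-0.12), Sesn2 (-0.11) and Xbp1 (0.04) were not called. The share without overlap among ratios of all genes was not computed. Such a ratio shows unequal change of 2 genes and does not tell which of them changed.

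**Figure D3:**
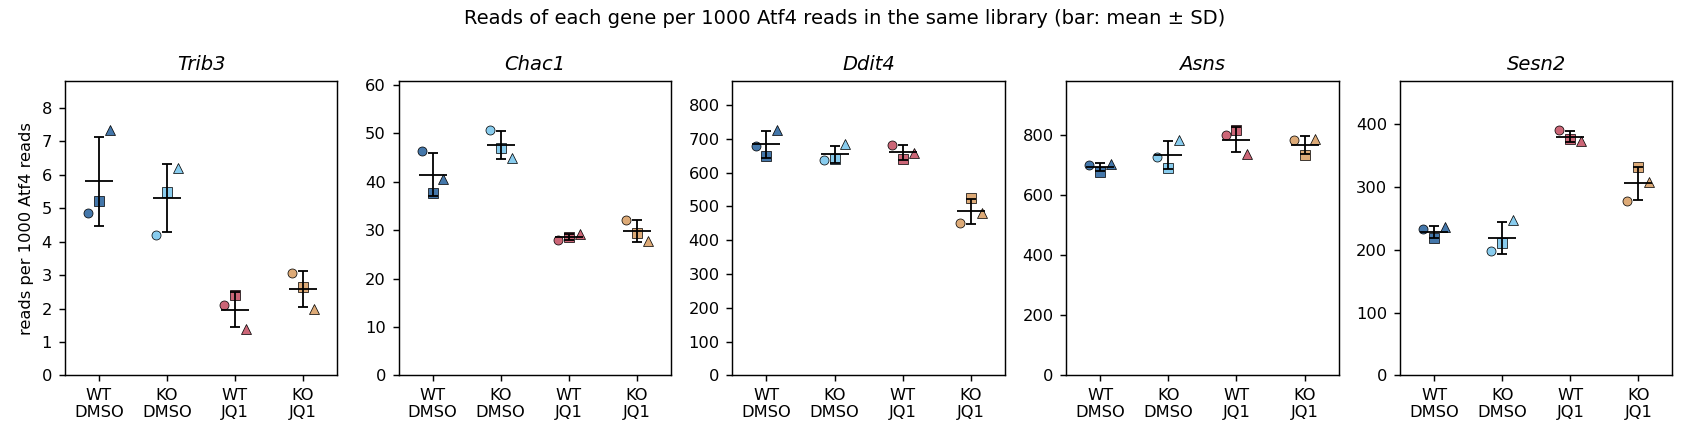
Reads of Trib3, Chac1, Ddit4, Asns and Sesn2 per 1000 Atf4 reads of the same library (linear axes from 0), with circles, squares and triangles for replicates 1, 2 and 3 and bars for the mean ± SD of 3 libraries. Trib3 and Chac1 are lower and Sesn2 higher under JQ1 in both genotypes, and Ddit4 is lower in KO_JQ1 alone (486 ± 37.8).

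The second question was whether loss of Fmr1 moved these genes. In vehicle none of the 10 was called by edgeR, against 15% of all tested genes (7.21% higher and 7.76% lower). The median log2 change was 0.01, beside -0.01 for all genes, and the largest were Chac1 at 0.25 (SE 0.105, adjusted p = 0.122) and Asns at 0.13 (SE 0.0469, adjusted p = 0.0821). Those were also the members with an unadjusted p under 0.05, at 0.0326 and 0.0172. Asns alone showed no overlap, with 114, 116 and 113 CPM in WT_DMSO and 129, 120 and 125 CPM in KO_DMSO, as did 37.6% of all genes. DESeq2 called it, and so did the authors' deposited table, which gives 0.14 on the log2 scale (SE 0.0505, adjusted p = 0.0341). Chac1 was called without KO_DMSO replicate 3 (0.35, adjusted p = 0.0386) and without both KO libraries numbered 3 (0.33, adjusted p = 0.0441). Intervals for the transcription factors were narrow for Atf4 (0.05, interval -0.07 to 0.16) and Ddit3 (0.08, -0.07 to 0.24) and wide for Atf3 (-0.06, -0.64 to 0.51). On the spike-in scale 9 of the 10 were called lower, with all tested genes shifted by -0.824, and Atf4, Ddit3, Asns, Chac1 and Xbp1 turned negative.

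Under JQ1 3 of the 10 were called between the genotypes, against 8.97% of all tested genes (4.85% higher and 4.13% lower): Atf4 and Asns higher and Ddit4 lower in KO. Atf4 was at 155, 153 and 169 CPM in WT_JQ1 and at 189, 180 and 179 CPM in KO_JQ1 (log2 change 0.20, SE 0.0529, adjusted p = 0.03). Asns was at 124, 125 and 125 CPM in WT_JQ1 and 148, 132 and 141 CPM in KO_JQ1 (0.17, SE 0.0469, adjusted p = 0.0367). Ddit4 was at 106, 97.7 and 111 CPM in WT_JQ1 and 85.0, 94.3 and 86.5 CPM in KO_JQ1 (-0.24, SE 0.054, adjusted p = 0.0162). The groups did not overlap for these 3, nor for Ddit3 (12, 11.7 and 12.2 against 13.8, 14.0 and 14.5 CPM; 0.23, adjusted p = 0.0525) and Chac1 (4.33, 4.36 and 4.95 against 6.10, 5.28 and 4.97 CPM; 0.28, adjusted p = 0.126). That makes 5 of 10 without overlap, beside 27% of all genes. Each of the 3 calls was lost when certain single libraries were left out. The Atf4 call ended when replicate 1 or 2 of WT_JQ1 or of KO_JQ1 was absent (adjusted p 0.0569 to 0.122), and the Ddit4 call without WT_JQ1 replicate 1 (0.0506) or KO_JQ1 replicate 1 (0.0693). Asns was lost without WT_DMSO replicate 2 or 3, any WT_JQ1 library or KO_JQ1 replicate 1 (0.053 to 0.147), and a fit of the 2 JQ1 groups alone called none of the 10.

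**Figure D4:**
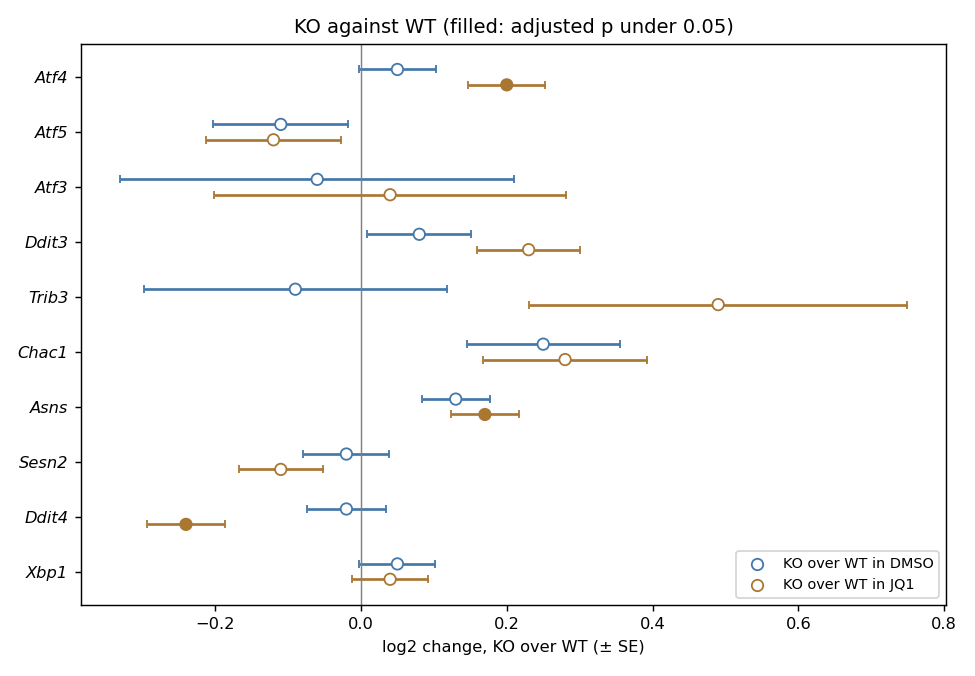
Log2 change of KO over WT (horizontal axis) with its SE for the 10 genes, in DMSO (blue) and in JQ1 (brown), filled where the adjusted p is under 0.05. All DMSO points are open, and Atf4 (0.20), Asns (0.17) and Ddit4 (-0.24) are filled in JQ1; on the spike-in scale no gene is called in JQ1 and Atf4, Ddit3, Asns, Chac1 and Xbp1 turn negative in DMSO.

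Whether JQ1 acted differently in KO and WT neurons was tested as the difference of the 2 responses. edgeR called none of the 10 and none of the 15433 genes, of which 355 had an unadjusted p under 0.05, and DESeq2 also called 0, with 269 at an unadjusted p under 0.05. Ddit4 came nearest, with a response lower by 0.22 in KO on the log2 scale (difference -0.22, 95% interval -0.38 to -0.06, unadjusted p = 0.0119, adjusted p = 1). Atf4 differed by 0.16 (interval 0 to 0.32, unadjusted p = 0.0532). For Trib3 the difference of 0.58 had an interval of -0.13 to 1.29, and for Sesn2 that of -0.09 ran from -0.26 to 0.09. The Ddit4 call in KO and its absence in WT are thus not shown to differ after adjustment.

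The wider pathway was read from 5 gene lists chosen for their roles. All list counts for JQ1 stand beside 55.1% of all tested genes called in WT (25.9% higher and 29.3% lower) and 57.1% in KO (27.7% and 29.4%), and no list was tested as a whole. Of the eIF2 kinases, eIF2 subunits, its exchange factor and its phosphatases, 9 of 18 (50%) were called in WT under JQ1, 9 higher and 0 lower (median 0.09), and 10 of 18 (55.6%) in KO, 10 higher and 0 lower (median 0.14). The share called was near that of all genes. Spike-in scaling turned the WT count to 0 higher and 2 lower and left 0 called in KO. Eif2b3, a subunit of the exchange factor eIF2B, rose by 0.55 in WT and 0.66 in KO on the log2 scale, and Eif2b5 of the same complex by 0.24 and 0.25. Impact, an inhibitor of the kinase GCN2, rose by 0.50 and 0.51, and Ppp1r15b, which directs a phosphatase to eIF2, by 0.33 and 0.26. Of the kinases themselves, Eif2ak1 (0.11 and 0.19) and Eif2ak3 (0.15 and 0.13) rose, whereas Eif2ak4 (-0.06 and 0.03) and Eif2ak2 (-0.29 and -0.26) were not called in either genotype. These 4 kinases, and Gadd45b, Ern1, the JQ1 value of Herpud1 and the paralogs below, were singled out after their values were seen.

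Genes of amino acid synthesis and transport, a classical group of ATF4 targets, were called in 18 of 21 cases in WT (85.7%, against 55.1% of all genes) and in 19 of 21 in KO (90.5%, against 57.1%), in both directions. In WT 11 fell and 7 rose (median -0.19), and in KO 11 fell and 8 rose (median -0.22). Mthfd1l, a mitochondrial folate enzyme, fell by 1.09 in WT and 1.04 in KO on the log2 scale, the cationic amino acid transporter Slc7a3 fell by 1.07 and 0.77, and the glycine transporter Slc6a9 fell by 0.82 and 0.88. Shmt2, which makes glycine from serine in mitochondria, rose by 0.44 and 0.45. On the spike-in scale 0 genes of this list were higher and 12 lower in WT, and 0 higher and 2 lower in KO. Of the cytosolic aminoacyl-tRNA synthetases, 4 were higher and 3 lower of 20 in WT (35% called against 55.1% of all genes, median 0.03) and 7 higher and 2 lower in KO (45% against 57.1%, median 0.08). Eprs rose by 0.36 and 0.37, Tars by 0.25 and 0.23 and Sars by 0.22 and 0.18, while Aars fell by 0.33 in each genotype. On the spike-in scale 0 synthetases were higher and 4 lower in WT, and 0 were called in KO.

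Among stress effectors and leucine zipper partners, 26 of the 28 genes passed the filter in 27 rows, since Atf7 has 2, and Nupr1 and Fgf21 were too low. In WT 4 rows rose and 8 fell (44.4% called against 55.1% of all genes, median -0.03), and in KO 6 rose and 10 fell (59.3% against 57.1%, median -0.14). Spike-in scaling left 0 higher and 11 lower in WT and 0 higher and 1 lower in KO. Gdf15, a secreted stress hormone, fell by 1.86 in WT and 2.28 in KO on the log2 scale from a mean of 0.8112 CPM in WT_DMSO. Eif4ebp1, an inhibitor of translation initiation that ATF4 induces, fell by 1.06 and 0.92, and Stc2, a secreted glycoprotein, by 0.77 and 0.85. Gadd45b rose by 0.90 and 0.87. Among paralogs of the 10 genes, and relative to the bulk of genes, Sesn3 rose by 0.63 and 0.61, whereas Trib2 fell by 0.55 and 0.64 and Trib1 by 0.45 and 0.61. Ddit4l fell by 0.50 (adjusted p = 0.0225) and 0.44 (0.0409), and Sesn1 was at 0.10 (0.0862) in WT and rose by 0.12 (0.0374) in KO. Chac2 was not called, at -0.31 (0.0521) and 0.01 (0.94).

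Of the genes of the IRE1 and ATF6 branches and ER chaperones, 15 were higher and 3 lower of 30 in WT (60% called against 55.1% of all genes, median 0.14) and 14 higher and 3 lower in KO (56.7% against 57.1%, median 0.13). The share called was near that of all genes, and the balance of directions was not tested. Hspa5, the main ER chaperone BiP, rose by 0.37 in each genotype, Manf, a secreted ER stress protein, by 0.43 and 0.42, and Wfs1, an ER membrane protein, by 0.49 and 0.43. Creb3l1, a membrane-bound factor of the ATF6 type, fell by 1.65 and 1.61. In both genotypes Xbp1 thus fell while the sensor gene Ern1 rose by 0.62 and 0.65. Herpud1, which serves ER protein degradation, was among the 3 lower genes of the list in each genotype and fell by 0.35 and 0.44. Spike-in scaling left 0 higher and 4 lower of this list in WT and 0 higher and 1 lower in KO. Except under spike-in scaling, no setting tried moved any of these JQ1 counts by over 1.5 times.

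**Figure D5:**
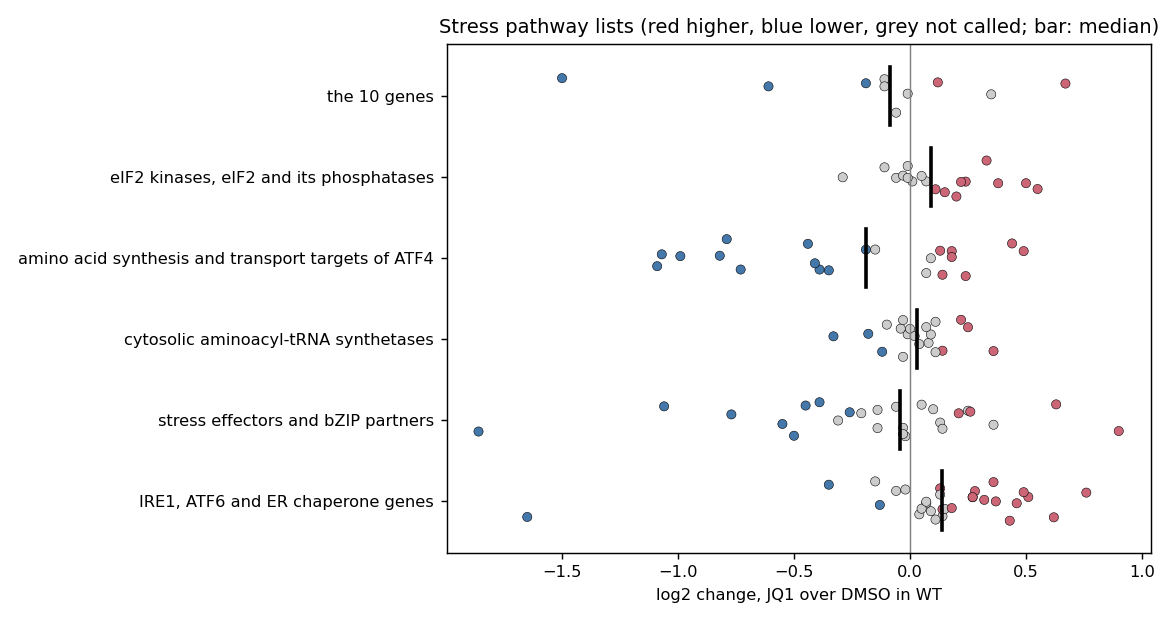
Log2 change of JQ1 over DMSO in WT (horizontal axis) for the 10 genes and the tested genes of the 5 pathway lists, red where called higher, blue where called lower, grey where not called, with a bar at each list's median. The amino acid list has genes called on both sides and its median at -0.19, the ER list has its median at 0.14, and single genes of the stress effector list reach -1.86 and 0.90; on the spike-in scale all genes shift by -0.633.

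Between the genotypes in DMSO 15% of all tested genes were called. The eIF2 list had 1 higher and 3 lower of 18 (22.2% called), the amino acid list 0 higher and 1 lower of 21 (4.76%), the stress effectors 1 higher and 2 lower of 27 rows (11.1%), and the ER list 5 higher and 0 lower of 30 (16.7%). Eif2s1, which carries the phosphorylated site of eIF2, was lower in KO (log2 change -0.24, adjusted p = 0.0172), and Gcn1l1, the activator of GCN2, was higher (0.26, adjusted p = 0.0196). Psph, which completes serine synthesis, was lower (-0.30, adjusted p = 0.0123), as were Cebpg, a dimer partner of ATF4 (-0.25, adjusted p = 0.00439), and Creb1 (-0.23, adjusted p = 0.029). The chaperone Calr (0.24, adjusted p = 0.00687) and Herpud1 (0.29, adjusted p = 0.0144) were higher. Of the synthetases 4 of 20 (20%) were higher, Sars (0.25), Yars (0.18), Kars (0.17) and Aars (0.17), and 0 lower; under JQ1 the same 4 and Farsa (0.19) were higher in KO. In JQ1, where 8.97% of all genes were called, the other lists had 0 calls of 18, 1 lower of 21, 1 higher and 1 lower of 27 rows and 1 higher of 30. Leaving out any 1 of the 6 DMSO libraries moved at least 1 of the 5 list counts in DMSO by over 1.5 times. The synthetase count fell to 2 without WT_DMSO replicate 2 or KO_DMSO replicate 1 and rose to 7 without KO_DMSO replicate 3. Its JQ1 count fell to 1 without WT_JQ1 replicate 1 or 2 or KO_JQ1 replicate 1, to 2 without WT_JQ1 replicate 3 and to 3 without KO_JQ1 replicate 2. With spike-in scaling 17 synthetases were lower in DMSO and 0 were called in JQ1.

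The genes whose pattern over the 12 libraries was most like that of Atf4 were found by the root mean square difference of log2 CPM, each gene centred on its own mean. They were Atp5b (0.0351), Tmub2 (0.0421), Cdk5 (0.0474), Ubl4 (0.0476) and Cops7b (0.0482), beside a median of 0.2 over all other tested genes. Atp5b encodes a subunit of ATP synthase and Cdk5 a neuronal kinase. Among the 10 genes Ddit3 was closest to Atf4, at rank 23 of 15432 (0.0543), then Asns at rank 760 (0.0872), while Trib3 was at rank 13525 (0.388). Since Atf4 varied little, any gene that varies little reaches a low value here.

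Cell type markers were summed in each library, since in bulk RNA fewer cells of a type and less RNA per cell cannot be told apart. The 9 neuronal markers summed to 4102 to 4252 CPM in WT_DMSO, 4645 to 4991 in KO_DMSO, 3880 to 4019 in WT_JQ1 and 4372 to 4580 in KO_JQ1, ranges that did not overlap. Tubb3 made up most of this sum, at 2449 CPM in WT_DMSO and 2144 CPM in WT_JQ1 on average, and the markers did not move together under JQ1: in WT Tubb3, Rbfox3, Nefm and Slc17a7 were called lower, whereas Nefl (log2 change 0.85) and Syt1 (0.14) were called higher. The 10 astrocyte markers, none at 0, summed to 784.7 to 941.3 CPM in WT_DMSO, 549.8 to 744.3 in KO_DMSO, 554 to 755.3 in WT_JQ1 and 357.9 to 571.4 in KO_JQ1. For JQ1 6 of them were called lower in WT and 5 in KO, beside 29.3% and 29.4% of all tested genes, and the summed ranges of DMSO and JQ1 were apart in WT and overlapped in KO. The 10 fibroblast and endothelial markers summed to 29.07 to 37.14 CPM in WT_DMSO, 14.41 to 17.93 in KO_DMSO, 16.35 to 21.18 in WT_JQ1 and 10.61 to 11.76 in KO_JQ1. Dcn made up most of this sum, at 27.99 CPM in WT_DMSO and 10.89 CPM in KO_DMSO on average. The markers did not move together between the genotypes in DMSO. Dcn (log2 change -1.36) and Lum (-0.92) were called lower in KO, whereas Col3a1 (1.53) was called higher. The 10 progenitor markers summed to 480.3 to 521.9 CPM in WT_DMSO, 393.3 to 467.4 in KO_DMSO, 468.6 to 534.2 in WT_JQ1 and 318 to 412 in KO_JQ1. Microglial markers were low, at 11.91 to 13.19 CPM in WT_DMSO, 11.73 to 15.78 in KO_DMSO, 7.774 to 9.826 in WT_JQ1 and 8.913 to 11.85 in KO_JQ1. Cx3cr1, Csf1r, Itgam and Trem2, at 0.3756 to 1.043 CPM in WT_DMSO on average, were called lower under JQ1 in both genotypes. C1qb was called lower in KO alone, beside 29.3% of all tested genes in WT and 29.4% in KO. Aif1, the largest part of the sum at 4.85 CPM in WT_DMSO, was not called, nor were C1qa and C1qc. Itgam, Tmem119 and P2ry12 were at 0 in some libraries, and oligodendrocyte lineage markers summed to 145.7 to 213.2 CPM. The part of these cells in the changes of the 10 genes was not tested.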

How the data were processed

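Per the labels' protocols, neurons were grown in Neurobasal with B27, treated at 7 days in vitro for 24 h, and made into TruSeq libraries for a NextSeq500. The submitters' processing notes name TopHat2 2.1.0, SAMtools 0.1.19, HTSeq 0.6.1, DESeq2 and the build mm9; the sources used here do not give strandedness. The authors deposited raw read counts per gene for 12 of 18 samples, with 92 ERCC rows that were kept out of library sizes. The authors' deposited DESeq2 table of KO over WT gives a mean signal, a log2 fold change with its SE and Wald score, a p-value and an adjusted p. It was copied for comparison only.

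The counts were modelled with edgeR 4.0.16 (R 4.3.3): filterByExpr (minimum count 10, 15433 of 37310 genes kept), TMM scaling, 1 mean per group over 12 libraries (8 residual degrees of freedom), quasi-likelihood F tests for 5 comparisons and Benjamini-Hochberg adjustment over all tested genes. Replicates of a group scattered beyond counting error, with chi-square over its degrees of freedom at 4.94 to 40.8. Alternatives were DESeq2 1.42.0, RLE and spike-in scaling, no filter, replicate blocks, only the groups compared, and libraries left out. Scripts were tested on simulated data.

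Same-numbered libraries deviated together between DMSO and JQ1 of one genotype (r 0.15 to 0.19 in WT, 0.38 to 0.42 in KO) but not between genotypes (-0.24 to 0.16), so the number was taken as pairing within genotype only. Pairing comes from this check of the data, as the labels give the numbers alone. The main fit did not use it, and a block on the number within genotype was run as an alternative.

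The 10 genes and the lists were chosen with earlier results of these data known. Genes were named by rule: the 10 genes, Fmr1, up to 4 per pathway list of smallest adjusted p for JQ1 in WT, up to 2 for KO over WT in DMSO, and the 5 nearest to Atf4 (on log2 of CPM plus 0.5). Lengths come from GENCODE M21 and promoters from RefSeq (GRCm38.p6), not from the authors' mm9 annotation.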

Additional observations from a re-analysis of the deposited data

How the results depend on the processing

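The JQ1 calls of all 6 genes in KO and of Trib3, Chac1 and Sesn2 in WT stood in every setting except spike-in scaling, where Sesn2 was lost in WT and all 6 KO calls were lost. Those 6 KO changes kept their direction on the spike-in scale. Their log2 values were -0.89 for Trib3, 0.64 for Sesn2, -0.51 for Chac1, -0.27 for Ddit4, 0.24 for Asns and -0.13 for Xbp1. The cause of the lost calls and of the shifts under spike-in scaling was not tested. Scaling to the ERCC spike-ins gave 0 called members and 1520 genes (206 higher and 1314 lower, against 4279 and 4538) for JQ1 in KO, 9 members and 11994 genes (4 higher and 11990 lower) for KO over WT in DMSO, 0 members and 23 genes (5 higher and 18 lower) for KO over WT in JQ1, and for JQ1 in WT 5 members and 5854 genes (40 higher and 5814 lower). It reversed for JQ1 in WT Atf3 (-0.24) and Asns (-0.52), for KO over WT in DMSO Atf4 (-0.77), Ddit3 (-0.72), Asns (-0.70), Chac1 (-0.58) and Xbp1 (-0.77), for KO over WT in JQ1 Atf3 (-0.09) and Xbp1 (-0.07), and for the difference of the responses Atf5 (0.65), Ddit4 (0.48), Sesn2 (0.61) and Xbp1 (0.70).

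For KO over WT in DMSO, DESeq2 and a fit of only the groups compared each called 1 member (Asns), and the fits without both KO replicate 3 libraries and, chosen after seeing the data, without these and WT_JQ1 replicate 3 each called 1 (Chac1). For KO over WT in JQ1 the fit of only the groups compared called 0 members and 630 genes, and those 2 fits with libraries left out called 2469 and 2549 genes; they also reversed the Atf5 difference (0.07 and 0.04), and the second lost Ddit4 (adjusted p = 0.0652) and Asns (0.0669) and called Chac1 (0.0469). DESeq2 called Ddit3 there (0.032) and gave no adjusted p for Atf3 and Trib3. With no filter Asns was lost for JQ1 in WT (0.121).

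Leaving out 1 library at a time gave 3 to 5 called members and 7563 to 8889 genes for JQ1 in WT, 6 to 7 and 7807 to 9028 for JQ1 in KO, 0 to 1 and 885 to 2764 for KO over WT in DMSO, 0 to 4 and 534 to 2027 for KO over WT in JQ1, and 0 for the difference. Small changes crossed 0: Ddit3 for JQ1 in WT (-0.05 to 0.04); for KO over WT in DMSO Atf3 (-0.21 to 0.17), Ddit4 (-0.03 to 0.03), Trib3 (-0.20 to 0.11) and Sesn2 (-0.05 to 0.04); for KO over WT in JQ1 Atf3 (-0.25 to 0.30); and for the difference Atf3 (-0.18 to 0.36), Atf5 (-0.11 to 0.09), Chac1 (-0.07 to 0.08) and Xbp1 (-0.08 to 0.02).

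The replicate block within genotype called 6 members for JQ1 in WT and 7 in KO and changed no call beyond Ddit4 and Atf3 given above. Between genotypes the number is only a number; a block on it gave 4 members for KO over WT in JQ1 (Ddit3, adjusted p = 0.0484) and 1953 genes, and 0 members and 2789 genes in DMSO. RLE scaling changed no member's call. Depth limits Trib3 and Atf3, which rest on 5 to 62 and 23 to 122 reads per library.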
